A study of Mus musculus with 172 samples.

Results

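Dbp, Tef and Hlf encode the PAR bZIP proteins, 3 related transcription factors rich in proline and acidic residues, and Nfil3 (also called E4bp4) encodes a bZIP repressor that binds the same DNA element. These 4 genes were taken by name as the output branch of the circadian clock, and their RNA levels were read in cortex and liver of the mouse BXD panel. All 4 were listed in both tissues, as 4 of 14896 genes in cortex, 4 of 14107 in liver and 4 of the 12695 that the tissues shared.

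The BXD lines are recombinant inbred mice made from C57BL/6J and DBA/2J, so that mice of a line share a genotype. Male mice aged 11 to 14 weeks were kept awake by gentle handling for 6 h from light onset (sleep deprivation, SD) or left undisturbed (control, Ctr). Cortex and liver were taken at ZT6, 6 h after light onset and straight after the deprivation. RNA of 3 mice of a line and condition was combined into 1 pool, with fewer mice for BXD79, BXD85 and BXD101.

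The 39 pools per tissue and condition came from 33 lines of the BXD/RwwJ set, 4 pools of the parents (2 for each parent, from the start and the end of the breeding) and 2 F1 pools of the reciprocal crosses, BD-F1 and DB-F1. A Ctr and an SD pool of a line hold different mice of the same genotype, so a paired change is a difference between such pools. A further 4 BXD/TyJ lines (BXD05, BXD29, BXD29t and BXD32), whose ages and pool sizes were not stated, were kept apart from the comparisons of the 39.

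PAR bZIP proteins and NFIL3 compete for the D-box, a short element found before clock genes of the Per family and before genes of drug and lipid metabolism. Dbp itself is switched on by the CLOCK and BMAL1 pair through E-boxes, whereas Nfil3 is under the REV-ERB repressors, so that the activators and the repressor peak at different times of day. In liver the PAR bZIP proteins are known for setting daily rhythms of detoxification enzymes, and mice without Dbp, Tef and Hlf have seizures.

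Levels are given as log2 CPM, the logarithm to base 2 of a gene's reads (counts per M reads of a library, with the authors' scaling), so that a difference of 1 is a doubling. Cortex libraries of the 39 pools per condition held 19 to 29 M reads in genes, and liver libraries 4.68 to 8.27 M, or up to 9.02 M in the BXD/TyJ lines. The tissues carried their own markers. Snap25, a neuronal gene, had a median Ctr level of 11.84 in cortex and was not listed in liver, whereas the hepatocyte gene Alb had 9.07 in liver and was not listed in cortex. In bulk tissue, fewer cells of a type and less RNA per cell cannot be told apart.

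Of the marker genes of 13 cell types, 24 were listed in cortex, where 2 rose and 6 fell after SD, with a median change of -0.04 log2. Over all genes 33% rose and 35.4% fell in cortex, and 21.5% rose and 22.6% fell in liver (limma, adjusted p under 0.05). Of the 4 neuronal genes Slc17a7 and Rbfox3 fell by 0.12 and 0.09, and Snap25 (0.0038, adjusted p 0.878) and Gad1 (0.01, adjusted p 0.659) did not pass (limma). In liver 30 were listed, of which 2 rose and 8 fell, with a median change of -0.05. The B cell genes Cd79a, Cd79b and Ms4a1 all fell there, with a median change of -1.44, and their summed level had a median of 9.96 CPM in Ctr and 4.24 CPM in SD pools. The part of these shifts in the results below was not tested.

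Several libraries stood apart. The liver Ctr pool of BXD85 differed from the other liver Ctr pools in most clock genes, as described further on. By its correlation with the other libraries over all genes, BXD56 lay 10.1 and BXD90 8.05 median absolute deviations below the median of the cortex Ctr pools, and BXD70 lay 13.1 below that of the liver SD pools. The main results were also computed without BXD85 and without these 4 lines, settings chosen after seeing the data.

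On the mouse genome (mm9) Dbp lies at chr7:52960458-52965525 on the forward strand, Tef at chr15:81632851-81657291 on the forward strand, Hlf at chr11:90197849-90252231 on the reverse strand and Nfil3 at chr13:53062578-53076442 on the reverse strand. Exons of Sphk2 cover 491 exonic bases of Dbp, and those of Gm17597 cover 193 of Tef, in both cases from the opposite strand. Reads were counted by strand.

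In cortex, as described below, Dbp and Tef moved together and Nfil3 moved the other way. The start regions of the 4 genes were therefore searched on both strands for the E-box CACGTG and the D-boxes TTATGTAA and TTACGTAA. The search also covered the cyclic AMP element TGACGTCA and the core TAGGTCA of the element bound by REV-ERB and ROR. The 250 bases before each start came from RefSeq (GRCm38.p6), where Tef has 2 starts and the other genes 1. An E-box lay before each Tef start, at bases -127 to -122 and -138 to -133, a cyclic AMP element before Hlf at -9 to -2, and the REV-ERB and ROR core before Nfil3 on the other strand, as TGACCTA, at -12 to -6. Of 32851 promoters of this length, 6.02% held the E-box, 1.55% the cyclic AMP element, 2.23% the REV-ERB and ROR core, 0.819% TTATGTAA and 0.113% TTACGTAA. None of these letters was found before Dbp, and neither D-box before any of the 4 genes. The promoters with a match are shown 5′ to 3′ on the strand of the gene, at chr15:81802423-81802672, chr15:81811164-81811413, chr11:90390918-90391167 and chr13:52981040-52981289, and capitals mark the match.
Tef start 1: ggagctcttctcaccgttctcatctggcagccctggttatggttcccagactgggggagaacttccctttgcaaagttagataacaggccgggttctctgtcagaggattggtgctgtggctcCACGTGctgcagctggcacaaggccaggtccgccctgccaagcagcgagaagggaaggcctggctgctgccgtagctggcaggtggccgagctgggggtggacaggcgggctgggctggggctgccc
Tef start 2: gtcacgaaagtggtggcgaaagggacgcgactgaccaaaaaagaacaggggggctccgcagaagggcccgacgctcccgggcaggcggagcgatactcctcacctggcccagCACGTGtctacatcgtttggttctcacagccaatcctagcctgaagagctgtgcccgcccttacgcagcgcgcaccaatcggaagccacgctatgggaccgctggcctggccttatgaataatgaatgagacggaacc
Hlf: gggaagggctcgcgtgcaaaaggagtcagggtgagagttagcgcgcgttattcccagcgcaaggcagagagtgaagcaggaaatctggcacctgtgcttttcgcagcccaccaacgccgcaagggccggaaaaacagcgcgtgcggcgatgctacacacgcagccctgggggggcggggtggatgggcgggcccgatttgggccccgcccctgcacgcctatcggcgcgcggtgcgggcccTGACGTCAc
Nfil3: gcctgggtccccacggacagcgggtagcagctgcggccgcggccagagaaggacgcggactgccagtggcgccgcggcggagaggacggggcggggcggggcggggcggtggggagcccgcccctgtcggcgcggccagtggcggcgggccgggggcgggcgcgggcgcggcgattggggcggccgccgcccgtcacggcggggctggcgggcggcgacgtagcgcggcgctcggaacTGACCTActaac

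The Dbp gene itself held 2 E-boxes on mm9, both in introns, at chr7:52963082-52963087 and chr7:52963195-52963200. Of 27943 windows of 5068 bases along chromosome 7, the length of Dbp, 39.3% held at least 1 E-box and 10.8% as many as Dbp. They are shown with their neighbouring bases, E-box in capitals, since E-boxes inside Dbp are the ones described for CLOCK and BMAL1.
Dbp E-box 1: attccctcgcCACGTGagtccgcctt
Dbp E-box 2: ctgtaggccaCACGTGatgcggccct
A match is a description of the letters and not of binding, and the lack of one says only that these letters are not in these windows.

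Divided by exon length, which allows genes to be set beside each other, Tef was the highest of the 4 in cortex Ctr pools, with a median of 6.40 log2 CPM per kilobase of exon. Dbp (5.63) and Hlf (5.60) came next and did not separate, since Dbp was above Hlf in 21 of 39 pools. Nfil3 was far lower, at 1.88, below Hlf in 39 of 39 pools. In cortex SD pools Dbp stood below Hlf in 39 of 39 pools, with medians of 4.85 and 5.56, and Nfil3 had moved up to 2.91.

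In liver Ctr pools the order was Dbp (6.28), Tef (5.63), Hlf (4.66) and Nfil3 (4.59). Dbp was above Tef in 38 of 39 pools, BXD85 being the exception, whereas Hlf and Nfil3 did not separate, with Hlf above in 23 pools. The order of the medians was the same in liver SD pools. Nfil3 was last of the 4 by median in both tissues, close to Hlf in liver, where Hlf was above it in 31 of 39 SD pools, and far below the others in cortex. The tissues were scaled apart by the authors, so levels of a gene in cortex and liver were not tested against each other.

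**Figure D1:**
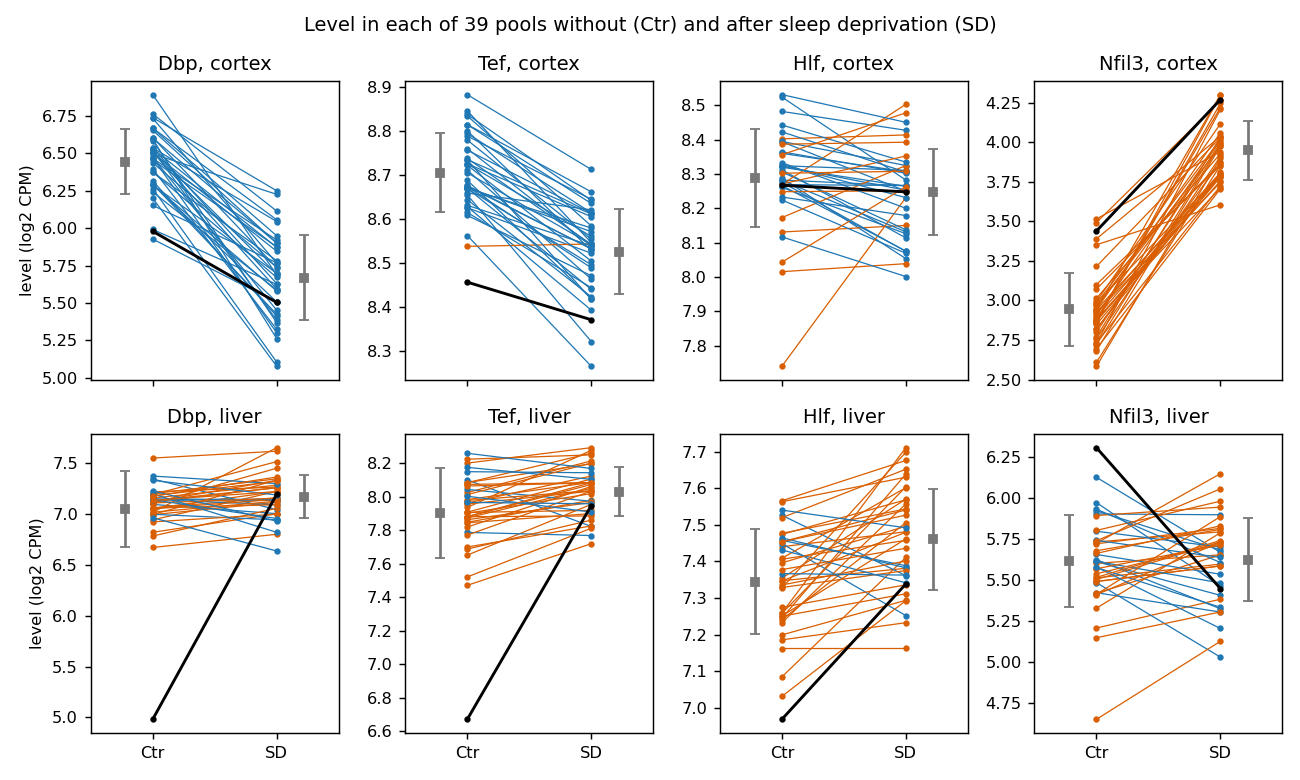
Level of each gene (log2 CPM, vertical axis) in 39 pools of cortex and liver, Ctr on the left and SD on the right, with a line joining the pools of a line (blue lower in SD, orange higher, black BXD85) and grey squares for mean and standard deviation. In cortex Dbp was lower and Nfil3 higher in SD in 39 of 39 pools, and the liver Ctr pool of BXD85 lay far below the others for Dbp and Tef.

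The first comparison asked what a period of enforced wakefulness did to the 4 genes in cortex. Dbp and Tef fell and Nfil3 rose, and Hlf did not pass the test. Across all 14896 genes 33% rose and 35.4% fell at an adjusted p under 0.05 (limma, Benjamini-Hochberg). Dbp and Nfil3 had the largest changes of the 4 members in cortex.

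Dbp, an activator with a wide daily swing, had levels of 5.93, 6.47 and 6.89 log2 CPM (lowest, median, highest) in cortex Ctr pools and 5.08, 5.69 and 6.25 in SD pools. The groups overlapped at their edges, and 33 of 39 SD pools were below the lowest Ctr pool. Dbp fell by 0.77 ± 0.056 log2 (limma estimate ± standard error, n = 39 pools per group, adjusted p 1.09e-21). On the linear scale it fell by 41.5%. It was lower in 39 of 39 pools, a regularity shared by 4.68% of the genes. By size it was decrease number 170 of 14896 genes.

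Tef, the member with the smallest spread of levels among the 4 in cortex, went from 8.46, 8.71 and 8.88 log2 CPM in Ctr to 8.27, 8.54 and 8.71 in SD pools of cortex. These ranges overlapped for most pools, with 9 of 39 SD pools below the lowest Ctr pool. Tef fell by 0.18 ± 0.021 log2 (limma, adjusted p 3.03e-12) and was lower in 38 of 39 pools, BXD65a being the exception at +0.01.

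Hlf, the third activator, had 7.74, 8.30 and 8.53 log2 CPM in Ctr and 8.001, 8.26 and 8.503 in SD pools of cortex, with full overlap. Its change was -0.04 ± 0.030 log2 (limma, 95% interval -0.10 to 0.02, adjusted p 0.228), lower in 27 and higher in 12 of 39 pools. The highest change, +0.49, was that of BXD56, whose Ctr pool held the lowest Hlf level and stood apart over all genes. Without BXD56, BXD70, BXD85 and BXD90, left out after seeing the data, the change was -0.06 with an adjusted p of 0.0431.

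Nfil3, the repressor, had 2.58, 2.89 and 3.52 log2 CPM in cortex Ctr pools and 3.60, 3.93 and 4.30 in SD pools. The groups did not overlap, since the lowest SD pool (BXD89, 3.60) was above the highest Ctr pool (BXD56, 3.52), which held for 1.01% of the genes. Nfil3 rose by 1.00 ± 0.047 log2 (limma, adjusted p 7.51e-33), a fold of 2.01. It was higher in 39 of 39 pools, as were 6.48% of the genes, and was increase number 108 of 14896 by size. The median cortex library held 172 reads of Nfil3 in Ctr and 348 in SD, against 1969 and 1162 of Dbp.

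Within a line the ends of the order of change in cortex were regular. Dbp had the lowest change of the 4 in 39 of 39 lines, and Nfil3 the highest in 38, the exception being BXD56, where Hlf was higher. A fall of Dbp together with a rise of Nfil3 was seen in 39 of 39 lines, and all 3 activators were lower in 27.

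In liver the same deprivation gave another picture. Hlf and Tef rose slightly, and neither Dbp nor Nfil3 passed the test. Of 14107 liver genes 21.5% rose and 22.6% fell, beside 2 of 4 members that rose and none that fell.

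Liver Dbp had 4.98, 7.12 and 7.55 log2 CPM in Ctr and 6.64, 7.16 and 7.66 in SD pools. The lowest Ctr value is that of BXD85, and the next was 6.67. Its change was +0.12 ± 0.067 log2 (limma, 95% interval -0.01 to 0.26, adjusted p 0.132), higher in 27 of 39 pools. BXD85 alone gave +2.22, the next line BXD70 +0.64, and without BXD85 the estimate was +0.07 with an adjusted p of 0.195.

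Liver Tef had 6.67, 7.93 and 8.26 log2 CPM in Ctr and 7.72, 8.04 and 8.29 in SD pools, with wide overlap. Tef rose by 0.13 ± 0.048 log2 (limma, adjusted p 0.0226), higher in 31 of 39 pools. BXD85 gave +1.28, and without it the change was +0.10 with an adjusted p of 0.0242. Without BXD56, BXD70, BXD85 and BXD90 it was +0.08 and no longer passed, at an adjusted p of 0.0659.

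Liver Hlf had 6.97, 7.35 and 7.57 log2 CPM in Ctr and 7.16, 7.46 and 7.71 in SD pools, where 10 SD pools were above the highest Ctr pool. Hlf rose by 0.12 ± 0.032 log2 (limma, adjusted p 0.00165), an increase of 8.32% on the linear scale, in 32 of 39 pools. Of the 2 members that rose in liver, Hlf passed also without BXD85 (+0.11) and without the 4 lines that stood apart (+0.10).

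Liver Nfil3 had 4.65, 5.61 and 6.31 log2 CPM in Ctr and 5.03, 5.65 and 6.15 in SD pools, an almost complete overlap. Its change was +0.01 ± 0.060 log2 (limma, 95% interval -0.11 to 0.13, adjusted p 0.936), higher in 23 and lower in 16 pools. The sign turned to -0.02 in the 33 BXD/RwwJ lines alone. The lines ran from -0.86 in BXD85 to +0.48 in BXD81.

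Liver values carry a limit that cortex values do not. Reads of a gene should follow the library total, and in cortex the median slope of log2 reads on log2 total was 0.978. In liver the slope was 0.355 for genes densely covered by reads and 1.9 for sparsely covered ones, with 0.319 for Dbp, 0.736 for Tef, 1.06 for Hlf and 0.694 for Nfil3. Over the 39 liver SD pools the Dbp level was lower in larger libraries, with r = -0.70 (Pearson, permutation p 1.00e-05, the smallest that 100000 resamples give, adjusted p 1.60e-04 over 16 relations), Spearman's rho -0.71 and r = -0.65 without the 2 farthest pools. In liver Ctr pools r was -0.27 for Dbp (permutation p 0.0971, adjusted p 0.259), with rho -0.42 (permutation p 0.0074) and r = -0.24 without 2. None of the other relations among the 16 passed by the adjusted p of r. By rho, which was not adjusted, Tef had -0.33 in liver Ctr and -0.33 in liver SD pools (permutation p 0.0427 and 0.0437). Nfil3 had rho -0.40 in liver SD pools (permutation p 0.0123). With the slope on library total taken out of each gene no call of a member's change after SD or of its tissue difference moved. Liver levels and changes of densely covered genes, Alb and Dbp among them, may therefore be compressed. What produced the slope was not tested.

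**Figure D2:**
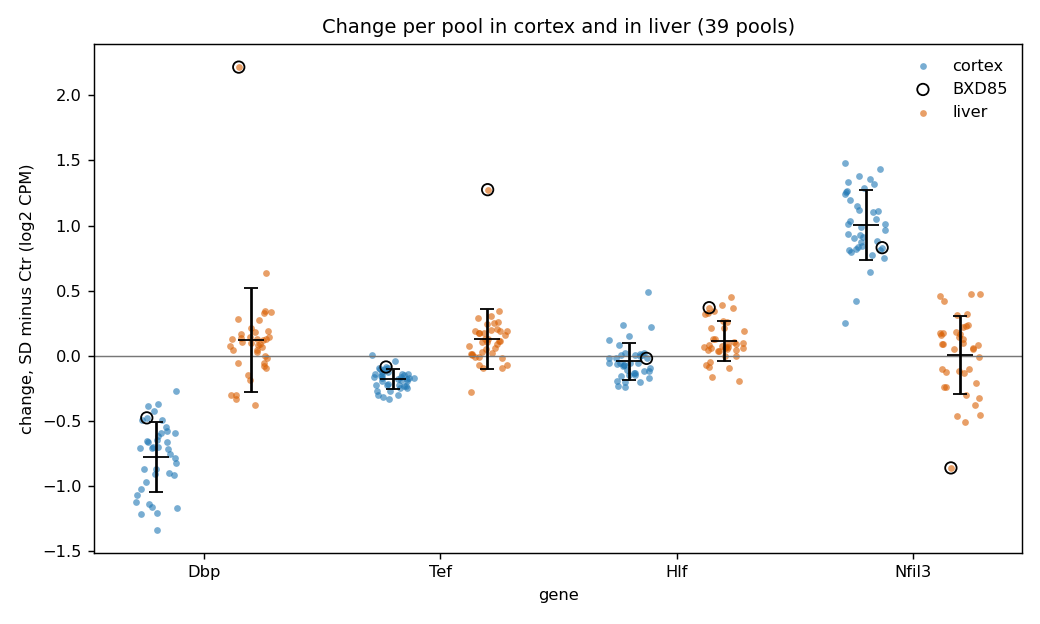
Change per pool (SD minus Ctr, log2 CPM, vertical axis) of each gene in cortex (blue) and liver (orange), 39 pools each, with mean and standard deviation in black and BXD85 circled. The cortex and liver changes of Dbp and of Nfil3 met only at the ends of their ranges.

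Whether cortex and liver differed was tested on the paired values, as the liver change minus the cortex change of each pool. All 4 members passed, Dbp, Tef and Hlf with the liver above the cortex and Nfil3 with the liver below it. Of 12695 shared genes 28% had the liver above and 29.6% the liver below.

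For Dbp the difference was +0.90 ± 0.067 log2 (limma, adjusted p 2.94e-15), and the liver change was the higher in 39 of 39 pools, from +0.20 in BXD89 to +2.69 in BXD85. In 27 pools Dbp was lower in cortex and higher in liver, and in the other 12 it was lower in both. Without BXD85 the difference was +0.85.

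For Tef it was +0.31 ± 0.034 log2 (limma, adjusted p 2.56e-10, higher in liver in 38 of 39 pools), and for 31 pools the direction was opposite, down in cortex and up in liver. For Hlf, the least affected in cortex, it was +0.16 ± 0.031 log2 (limma, adjusted p 4.22e-05, higher in liver in 31 pools).

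For Nfil3 the difference was -0.997 ± 0.067 log2 (limma, adjusted p 9.51e-17), with the liver change below the cortex change in 38 of 39 pools and BXD56 as the exception. The largest gap was -1.80 in BXD75. By size the Nfil3 and Dbp differences were number 182 and 254 of 12695.

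A question the BXD panel adds is how far the level of a member belongs to its line. Since a Ctr and an SD pool of a line hold different mice, their levels were compared over 37 strains, with the parental pools averaged per strain, as Pearson r with a two-sided permutation test (100000 resamples) and Benjamini-Hochberg adjustment over a family of 56 relations. The level passed this test for 6 of 8 pairs of member and tissue, and all 8 r were positive. Such relations were frequent, since at an unadjusted p under 0.05 (r past 0.325) 51.1% of all genes in cortex and 56% in liver had one, beside 3 of 4 members in each tissue. According to the methods, SD and Ctr mice were paired within cohorts, so pools of a line may share cohorts as well as genotype. The part of shared cohorts in these relations was not tested.

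In cortex the line of a pool showed most in Tef, with r = 0.68 between its Ctr and SD levels (permutation p 1.00e-05, adjusted p 9.33e-05), rho 0.68 and r = 0.61 without the 2 strains farthest from the median. Dbp had r = 0.47 (permutation p 0.00281, adjusted p 0.00749), rho 0.50 and 0.48 without those 2. Hlf had r = 0.42 (permutation p 0.00823, adjusted p 0.0192), rho 0.56 and 0.48 without 2. Nfil3, the member that changed most, had no such relation in cortex, with r = 0.19 (permutation p 0.266, adjusted p 0.347), rho 0.15 and 0.09 without 2.

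In liver Tef again had the highest value, r = 0.54 (permutation p 2.20e-04, adjusted p 8.96e-04), rho 0.69 and 0.67 without 2. Nfil3 had r = 0.37 (permutation p 0.0225, adjusted p 0.0406), rho 0.34 and 0.35 without 2. Hlf had r = 0.39 (permutation p 0.0167, adjusted p 0.0331), rho 0.36 and 0.31 without BXD85 and BXD81, where its permutation p was 0.0659. This relation was near the threshold, and also missed it with libraries centred on their medians (adjusted p 0.0508) and without BXD48a, BXD65a and BXD73b (adjusted p 0.0502). Dbp had r = 0.19 (permutation p 0.243, adjusted p 0.324), rho 0.39 and 0.37 without 2, and without BXD85 alone it passed, with r = 0.47 and an adjusted p of 0.0115.

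The lines at the ends of the ranges recurred. In cortex Ctr pools BXD65a, BXD85 and BXD56 held the lowest Dbp levels, 5.93, 5.98 and 5.99 log2 CPM, and the highest Nfil3 levels, 3.49, 3.44 and 3.52. In cortex SD pools BXD51 held the lowest level of both Dbp (5.08) and Tef (8.27), whereas BXD98 held the highest of both (6.25 and 8.71). BXD98 also had the highest Tef level in Ctr, at 8.88. The largest fall of Dbp was that of BXD90 (-1.33) and the smallest that of BXD89 (-0.27), which also showed the smallest rise of Nfil3 (+0.25), and the largest rise of Nfil3 was that of BXD75 (+1.479).

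The parental and F1 pools showed the cortex directions of Dbp and Nfil3 as well. The cortex change of Dbp was -0.91 and -1.07 in the C57BL/6J pools, -1.20 and -0.91 in the DBA/2J pools, -0.72 in BD-F1 and -0.59 in DB-F1, and the first DBA/2J pool had the highest Ctr level of all 39, at 6.89. The cortex change of Nfil3 was +1.38 and +1.04 in C57BL/6J and +0.99 and +1.12 in DBA/2J. In liver Dbp was lower after SD in both C57BL/6J pools, at -0.38 (the lowest of the 39) and -0.30, and higher in both DBA/2J pools, at +0.09 and +0.14. With 2 pools per parent these values were not tested against each other.

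The spread of the lines was compared between SD and Ctr over the 37 strains, as a ratio of standard deviations tested by permutation and adjusted over 8 tests. Tef in liver was the only member and tissue to pass, with a ratio of 0.541 (adjusted p 0.0119), and it did not pass without BXD85, with 0.822 (adjusted p 0.291). Dbp tended the other way in cortex, where its standard deviation was 0.21 in Ctr and 0.29 in SD, a ratio of 1.35 that did not pass (adjusted p 0.13). Without BXD48a, BXD65a and BXD73b, 1 line of each subline pair, that ratio was 1.5 with an adjusted p of 0.0485.

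Members were then related to each other over the 37 strains. Of 36 relations 23 passed, 12 positive and 11 negative, of which 18 held at a permutation p under 0.05 without the 2 farthest strains. Both genes of a pair were read from the same libraries and share their errors. At an unadjusted p under 0.05, 17% of all gene pairs passed in cortex Ctr, 11.5% in cortex SD and 17.3% for the cortex change, beside 5, 4 and 5 of 6 member pairs. In liver the shares were 18.5%, 27.3% and 23.1%, beside 5, 2 and 4 of 6. The 12 positive ones joined PAR bZIP genes, and the 11 negative ones joined Nfil3 to a PAR bZIP gene.

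Dbp and Tef were tied in both tissues. In cortex r was 0.78 in Ctr, 0.75 in SD and 0.63 for the change, with rho of 0.73, 0.73 and 0.60, r of 0.70, 0.65 and 0.65 without the 2 farthest strains, permutation p of 1.00e-05, 1.00e-05 (the smallest possible) and 5.00e-05 and adjusted p of 9.33e-05, 9.33e-05 and 2.80e-04. In liver r was 0.92, 0.65 and 0.91, with rho of 0.80, 0.66 and 0.66, 0.84, 0.69 and 0.65 without 2, and adjusted permutation p of 9.33e-05, 1.60e-04 and 9.33e-05. Strains with more Dbp RNA therefore had more Tef RNA, and a larger fall of Dbp in cortex went with a larger fall of Tef.

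Hlf was related to Dbp and Tef in part of the comparisons. Its Ctr level went with that of Dbp in cortex, with r = 0.39 (permutation p 0.0171, adjusted p 0.0331), rho 0.28 and 0.45 without 2, and in liver, with r = 0.58 (permutation p 3.00e-05, adjusted p 1.87e-04), rho 0.54 and 0.48 without 2. In liver neither the SD level (r = 0.07, permutation p 0.701, adjusted p 0.769, rho 0.16, 0.36 without 2) nor the change (r = 0.27, permutation p 0.117, adjusted p 0.172, rho 0.11, 0.15 without 2) passed with Dbp. With Tef its cortex Ctr level had r = 0.26 (permutation p 0.123, adjusted p 0.177), rho 0.28 and 0.24 without 2, which did not pass. In cortex SD pools neither passed, with r = 0.33 for Tef (permutation p 0.046, adjusted p 0.0758), rho 0.34 and 0.28 without 2, and r = 0.16 for Dbp (permutation p 0.353, adjusted p 0.44), rho 0.16 and 0.09 without 2. Without BXD56, BXD70, BXD85 and BXD90 the relation of Hlf with Dbp in cortex no longer passed for the Ctr level (r = 0.33, adjusted p 0.112) and newly passed for the change (r = 0.40, adjusted p 0.0466). For the change in cortex Hlf and Tef had r = 0.55 (permutation p 3.60e-04, adjusted p 0.00126), rho 0.59 and 0.51 without 2, while Hlf and Dbp had r = 0.30 (permutation p 0.0692, adjusted p 0.111), rho 0.36 and 0.45 without 2. In liver Hlf and Tef had r = 0.63 in Ctr, 0.49 in SD and 0.52 for the change, with rho of 0.55, 0.49 and 0.51, 0.57, 0.48 and 0.47 without 2, and adjusted permutation p of 2.80e-04, 0.0061 and 8.96e-04.

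Nfil3 ran against Dbp and Tef in cortex. With Dbp r was -0.65 in Ctr, -0.60 in SD and -0.52 for the change, with rho of -0.50, -0.65 and -0.53, -0.50, -0.63 and -0.58 without 2, and adjusted permutation p of 1.87e-04, 2.80e-04 and 0.00346. With Tef r was -0.69, -0.47 and -0.50, with rho of -0.61, -0.53 and -0.51, -0.62, -0.50 and -0.46 without 2, and adjusted permutation p of 9.33e-05, 0.00784 and 0.00581. A larger rise of Nfil3 thus went with a larger fall of Dbp and of Tef across strains.

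With Hlf in cortex Nfil3 had r = -0.40 in Ctr (permutation p 0.0144, adjusted p 0.0299) with rho -0.19, and -0.45 for the change (permutation p 0.00606, adjusted p 0.0148) with rho -0.39. These became -0.25 and -0.27 without the 2 farthest strains, at permutation p of 0.147 and 0.12, and rest on strains that include BXD56. In SD pools r was -0.25 (permutation p 0.128, adjusted p 0.18), rho -0.36 and -0.34 without 2, which did not pass, but did without BXD48a, BXD65a and BXD73b (r = -0.39, adjusted p 0.0458).

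In liver the negative relations of Nfil3 differed between settings. Nfil3 and Dbp had r = -0.46 in Ctr (permutation p 0.0265, adjusted p 0.0463), rho -0.36 and -0.31 without 2, and -0.44 for the change (permutation p 0.0124, adjusted p 0.0267), rho -0.14 and -0.10 without 2. Nfil3 and Tef had r = -0.41 for the change (permutation p 0.018, adjusted p 0.0336), rho -0.05 and 0.09 without 2. Without BXD85 alone none of these 3 passed, with r of -0.24, -0.04 and 0.01. With libraries centred on their medians none passed either, with r of -0.37, -0.36 and -0.28 and adjusted p of 0.0691, 0.0623 and 0.136. The Ctr relation with Dbp also missed the threshold in the 33 BXD/RwwJ lines (adjusted p 0.059) and without BXD48a, BXD65a and BXD73b (adjusted p 0.0502). In liver SD pools no relation of Nfil3 passed, with r of 0.05 for Dbp, 0.10 for Tef and 0.08 for Hlf (adjusted p 0.806, 0.629 and 0.701). The Ctr relation with Tef had r = -0.38 (permutation p 0.0354, adjusted p 0.0602), rho -0.20 and 0.05 without 2. With library total taken out it passed (r = -0.45, adjusted p 0.0271), and the relations with Dbp were at their strongest (-0.52 in Ctr, -0.53 for the change). Over the alternatives the number of relations between members that passed was 18 to 24 of 36, lowest without BXD56, BXD70, BXD85 and BXD90 and highest with library total taken out.

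**Figure D3:**
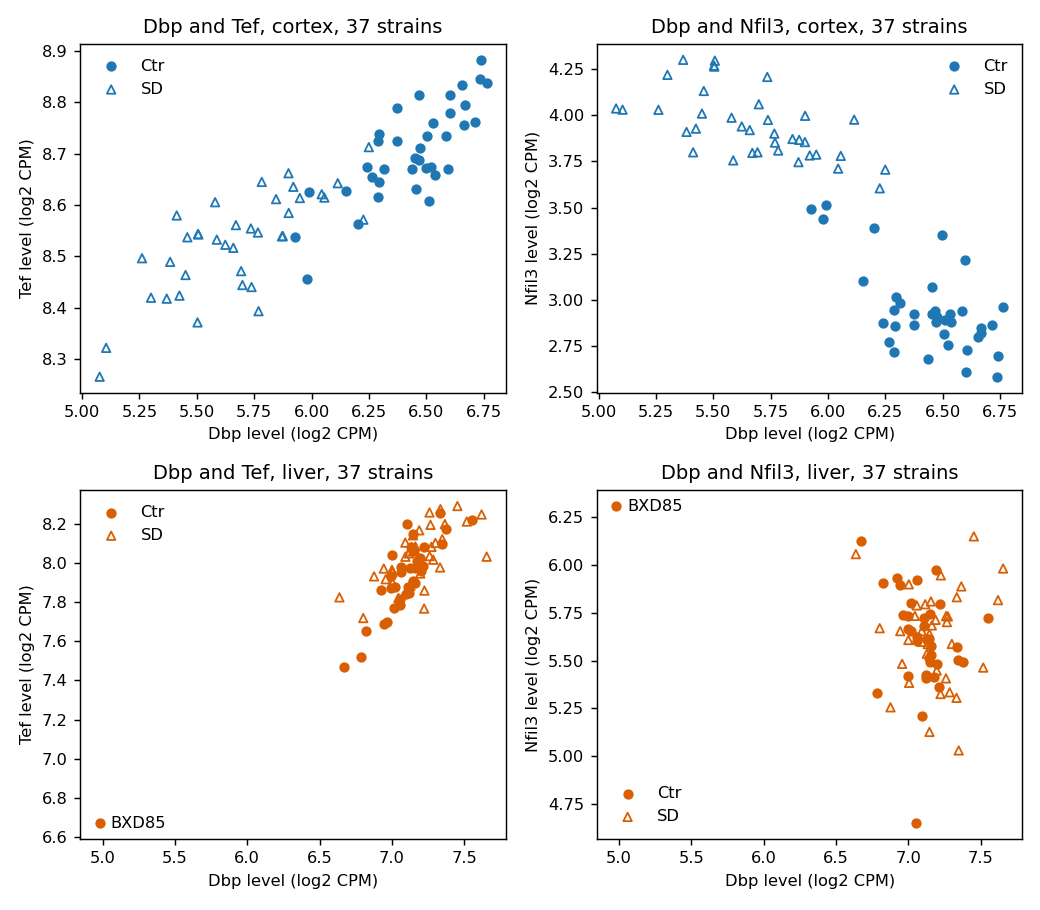
Level of Tef (left) and Nfil3 (right) against Dbp (log2 CPM on both axes) over 37 strains in cortex (top, blue) and liver (bottom, orange), filled circles Ctr and open triangles SD. In cortex Tef followed Dbp and Nfil3 ran against it within each condition, and in liver the Ctr pool of BXD85 stood alone.

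Across tissues 3 of 12 relations of a member with itself passed, all of them positive. The share of all genes with such a relation is not given here. The Ctr level of Tef in cortex went with that in liver, with r = 0.57 (permutation p 2.40e-04, adjusted p 8.96e-04), rho 0.49 and 0.43 without 2, and so did its SD level, with r = 0.41 (permutation p 0.0119, adjusted p 0.0266), rho 0.44 and 0.37 without 2. The Ctr relation did not pass without BXD56, BXD70, BXD85 and BXD90 (r = 0.34, adjusted p 0.102), nor the SD relation in the 33 BXD/RwwJ lines (r = 0.38, adjusted p 0.0547). The Ctr level of Dbp had r = 0.47 (permutation p 0.00172, adjusted p 0.00535), rho 0.36 and 0.36 without 2, and with an adjusted p of 0.0514 did not pass without BXD85. No change after SD in cortex passed a relation with the change in liver for any of the 4 members. For Tef this r was 0.25 (permutation p 0.132, adjusted p 0.18), rho 0.23 and 0.37 without 2, and for Hlf 0.09 (permutation p 0.617, adjusted p 0.701), rho 0.14 and 0.24 without 2. For Dbp it was 0.15 (permutation p 0.411, adjusted p 0.5), rho 0.03 and 0.19 without 2, and for Nfil3 it was -0.13 (permutation p 0.435, adjusted p 0.518), rho -0.17 and -0.02 without 2.

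The liver Ctr pool of BXD85 deserves its own account, since several liver results of Dbp depended on it. Beside the median of the 39 pools its Dbp level was lower by 2.14 log2 (4.98 against 7.12) and its Tef level by 1.26, while Nfil3 was 0.70 higher. The rest of the clock was displaced as well. Arntl, which encodes BMAL1, was 2.75 above the median and Npas2, its partner in place of CLOCK, 4.25 above, whereas the repressor genes Per2, Per3, Bhlhe41 and Ciart (listed as Gm129) were at -2.08, -3.68, -3.07 and -4.87. The SD pool of the same line did not stand out, with Dbp at +0.03, Tef at -0.09 and Arntl at -0.34. In cortex the Ctr pool of BXD85 lay on the same sides of the median by less, with Dbp at -0.49, Tef at -0.25, Nfil3 at +0.54 and Arntl at +0.29. Fewer mice were pooled for this line, and the part of that in its values was not tested. Over 19 clock genes this liver Ctr pool had a median absolute deviation of 1.05 from the median pool. BXD101, also with fewer mice, came next in liver Ctr, at 0.45. Its Dbp (6.67), Tef (7.47) and Nfil3 (6.13) levels were each the nearest to those of BXD85. In cortex Ctr pools BXD56 had the largest such deviation (0.38), before BXD85 (0.28). In deviations from the group means, Ctr and SD liver pools of a line correlated in 39 of 39 pairs, with a lowest r of 0.169. Of the 39 liver Ctr pools, 37 were closest to the SD pool of their own line. The authors report a genotype check of the lines from the reads. The sampling time of the BXD85 pool could not be checked here, and no cause of its displacement was tested.

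**Figure D4:**
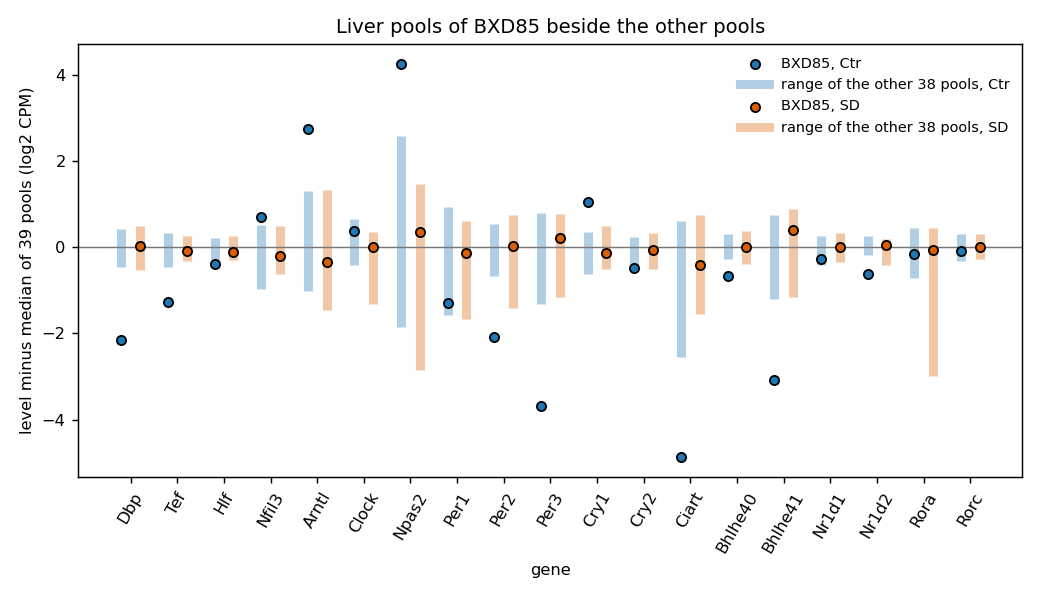
Level of each clock gene in the liver pools of BXD85 minus the median of 39 pools (log2 CPM, vertical axis), Ctr in blue and SD in orange, with bars for the range of the other 38 pools. The Ctr pool lay outside that range for Dbp, Tef, Hlf and Nfil3, and the SD pool lay inside it for each gene shown.

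To place the members among the clock genes around them, 7 lists were read in the same fits. The counts stand beside the shares of all cortex genes, of which 33% rose and 35.4% fell. In cortex the 3 activators Arntl, Clock and Npas2 all rose, with a median change of 0.32 log2 against -0.01 over all genes (limma, adjusted p of 9.41e-17, 1.22e-13 and 1.55e-23, higher in 38, 38 and 39 of 39 pools). Among the 8 genes of the repressing arm 4 rose and 2 fell, with a median of 0.17. Per1 and Per2, which hold D-boxes and answer quickly to stimuli, rose by 0.73 and 1.01 in 39 of 39 pools each, in the direction of Nfil3, and Ciart fell by 0.51 in 35 pools, in the direction of Dbp. In the loop of Rev-erb and Ror genes 4 of 5 fell and none rose, with a median of -0.22, and Nr1d1, the Rev-erb alpha gene, fell by 0.36 (adjusted p 5.71e-16, lower in 36 pools).

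The same lists were read in liver, where 21.5% of all genes rose and 22.6% fell. Of the activators 1 of 3 passed, Clock at +0.17 (limma, adjusted p 0.0292, 28 of 39 pools). Of the repressing arm 4 of 8 rose and none fell, Per1 by 0.85, Per2 by 0.34, Cry1 by 0.42 and Ciart by 0.51, and without BXD85 Per3 (-0.41, adjusted p 0.00237) and Bhlhe41 (-0.31, adjusted p 0.0214) passed as lower. Of the 4 listed Rev-erb and Ror genes Nr1d2 rose by 0.08 and Nr1d1 fell by 0.12, with a median of -0.01, and the medians of the activators and the repressing arm were 0.08 and 0.17. Without BXD85 the activator median was 0.18. Without BXD56, BXD70, BXD85 and BXD90 the activator median was 0.24, and that of the Rev-erb and Ror genes turned to 0.02. Ciart, which followed Dbp in cortex, also differed between the tissues, with a liver change 1.02 above that in cortex (adjusted p 1.64e-10, 36 of 39 pools), while Per1 did not (+0.12, adjusted p 0.219).

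**Figure D5:**
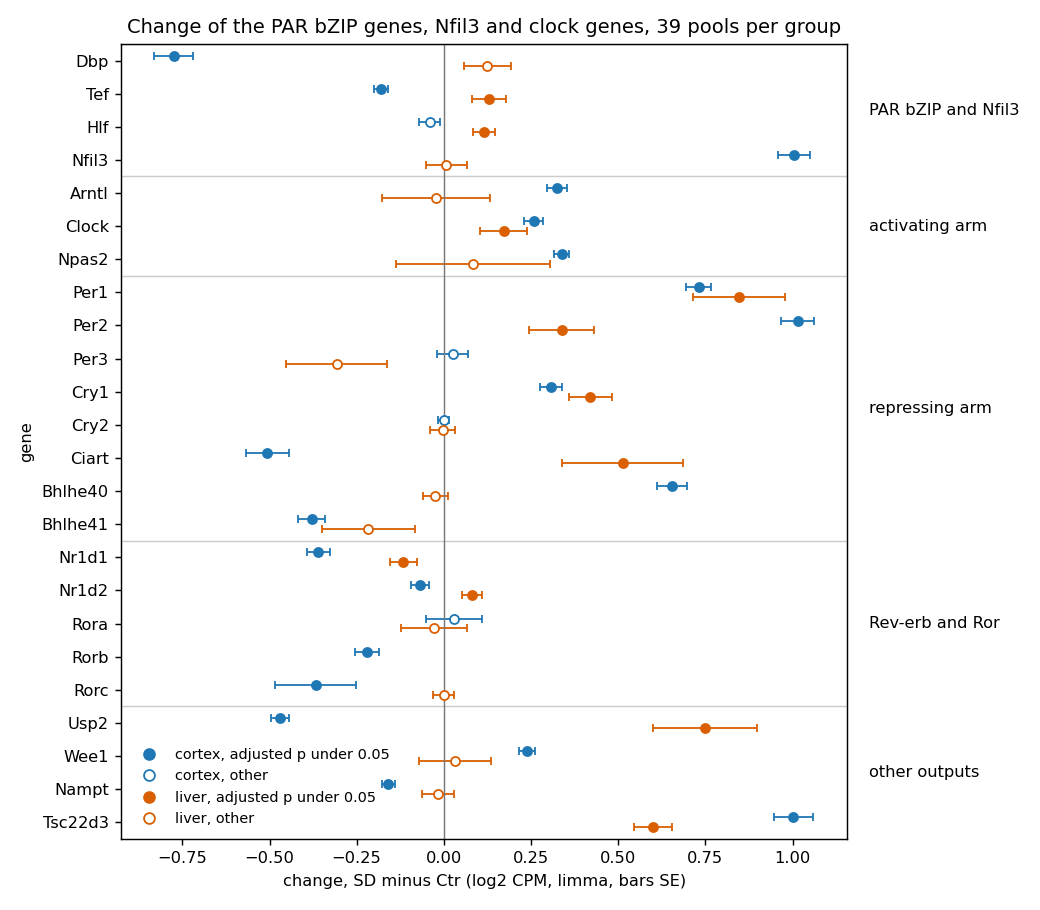
Change after SD (log2 CPM, horizontal axis, limma estimate with standard error) of the 4 genes and of clock genes in cortex (blue) and liver (orange), filled where the adjusted p was under 0.05, 39 pools per group. Dbp, Ciart and Usp2 lay on opposite sides of 0 in cortex and liver, and Nfil3, Per1 and Per2 were among the highest in cortex.

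Genes described as carrying D-boxes or as targets of the PAR bZIP proteins went in both directions, as did all genes. Over all genes 33% rose and 35.4% fell in cortex, and 21.5% rose and 22.6% fell in liver. Of 8 clock genes with D-boxes 3 rose, 3 fell and 2 did not pass in cortex, with a median of 0.03, and of the 7 listed in liver 4 rose and 1 fell, with a median of 0.08. The cortex median turned to -0.02 without BXD56, BXD70, BXD85 and BXD90. In liver 4 rose and 2 fell without BXD85. Of 11 genes of detoxification and related metabolism described as PAR bZIP targets, 5 were listed in cortex, where Por, Ppara and Pdxk rose and Alas1 and Abcb1a fell, with a median of 0.18. All 11 were listed in liver, where Cyp2b10, a drug-oxidising enzyme, rose by 1.11 (limma, adjusted p 0.00919, 28 of 39 pools), Por by 0.19 and Alas1 by 0.25, Abcb1a fell by 0.62 and the other 7 did not pass, with a median of 0.02. That liver median was 0.0047 without BXD56, BXD70, BXD85 and BXD90. Pdxk, which makes the active form of vitamin B6, rose in cortex by 0.24 in 39 of 39 pools, in the same tissue in which Dbp and Tef fell.

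The C/EBP genes, bZIP factors whose binding sites resemble the D-box, were read in the same way, beside the same shares of all genes. In cortex 5 of 5 listed rose, with a median of 0.27, and in liver 4 of 6 rose and none fell, with a median of 0.29 against -0.0015 over all genes, while Cebpa (-0.01) and Cebpe (-0.23) did not pass. Cebpd had the highest change of the list in both tissues, +0.63 and +1.02 (limma, adjusted p 6.65e-08 and 5.78e-15, higher in 34 and 37 of 39 pools). Of 4 other clock outputs Usp2, a deubiquitinase gene, fell by 0.47 in cortex, as Dbp did, and rose by 0.75 in liver, where Dbp did not pass, a difference of 1.22 (limma, adjusted p 1.47e-12, 38 of 39 pools). Tsc22d3, a glucocorticoid-induced gene, rose in both tissues, by 1.00 and 0.60, Wee1 rose in cortex by 0.24 and Nampt fell there by 0.16, and the median of these 4 was 0.04 in cortex and 0.32 in liver.

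The lists were also read by the paired difference (limma). Of all 12695 shared genes 28% had the liver above and 29.6% the liver below. Of the activators 1 of 3 had the liver change below the cortex change (Arntl, -0.35), and the other 2 did not pass, with a list median of -0.25 against -0.0033 over all 12695 genes. Without BXD56, BXD70, BXD85 and BXD90 Arntl no longer passed (-0.21, adjusted p 0.0506) and the list median was 0.0064. Of the repressing arm 1 was above (Ciart) and 3 below (Per2, Per3 and Bhlhe40), with a median of 0.05, and Cry1 was a further gene above without BXD85 (0.15, adjusted p 0.02) and without those 4 lines (0.14, adjusted p 0.0306). Of the 4 Rev-erb and Ror genes 3 were above and none below (median 0.20), and of the 7 clock genes with D-boxes 2 were above and 2 below (median 0.11), or 3 above in either of these settings, again by Cry1. Of the 5 shared PAR bZIP targets 1 was above and 3 below (median -0.21), of the 5 C/EBP genes 2 above and 1 below (median 0.07), and of the 4 other outputs 2 above and 2 below (median -0.03). Without BXD85 the medians of the activators, the repressing arm and the other outputs were -0.16, 0.03 and -0.07. Without the 4 lines those of the repressing arm, the C/EBP genes and the other outputs were 0.03, -0.02 and -0.09.

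The genes most like each member were found as the highest and lowest Pearson r over the 78 libraries of a tissue, after the mean of each condition was taken out, among genes with a mean of at least 1 log2 CPM (12899 in cortex and 12114 in liver), as a description with no test. In cortex the closest genes to Dbp were Tef (0.75), Ciart (0.68) and Nr1d1 (0.64), all of them clock genes, and the most opposed was Arhgef7 (-0.65). Nfil3 was number 9 from the bottom for Dbp, at -0.60. Tef was closest to Dbp, Pik3ip1 (0.58) and Phyhip (0.58) and most opposed to Nrn1 (-0.61).

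Nfil3 had quite other neighbours in cortex, namely Dnajb5 (0.72), Bdnf (0.67), which encodes a neurotrophin made by active neurons, and the cell cycle inhibitor Cdkn1a (0.66). Its most opposed gene was Susd2 (-0.61), followed by Dbp. Hlf was closest to Tmem196 (0.72), Kalrn (0.71) and Epb4.1l3 (0.70), with Slc29a4 (-0.67) at the other end, while Dbp and Tef stood at 0.22 and 0.28. Without BXD85 the closest gene of each member in cortex was again Tef for Dbp, Dbp for Tef, Tmem196 for Hlf and Dnajb5 for Nfil3. Other places changed in that setting. Gm996 (0.63) took the place of Nr1d1 beside Tef and Ciart for Dbp, and Pde1b (0.58) and Syt3 (0.57) came next for Tef. Trib1 (0.68) came after Dnajb5 for Nfil3, and the most opposed genes were Prmt2 (-0.69) for Hlf and Acox3 (-0.59) for Nfil3.

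In liver the closest genes to Dbp were Tef (0.85), Ciart (0.78) and Usp2 (0.75), and without BXD85 they were Slc9a3r1 (0.80), Gltscr2 (0.79) and Stard5 (0.78), with Clock (-0.79) most opposed. With library total taken out they were Tef (0.84), Per3 (0.80) and Ciart (0.80), with Arntl (-0.71) most opposed. Tef was closest to Usp2 (0.90), Wee1 (0.87) and Ciart (0.86), and without BXD85 to Coq10b (0.84), Usp2 (0.83) and Wee1 (0.82), with Dtx4 (-0.81) most opposed, and with library total taken out its closest were again Usp2, Wee1 and Ciart. Hlf was closest to Il6ra (0.61), Ppp2r5e (0.58) and Cry2 (0.58) and opposed to AI846148 (-0.51), and without BXD85 to Il6ra (0.63), Syde2 (0.58) and Rhobtb1 (0.57) and opposed to Plgrkt (-0.55), and with library total taken out to Sipa1l2 (0.63), Il6ra (0.63) and Ctage5 (0.62). Nfil3 was closest to Pnrc1 (0.59), Net1 (0.55) and Phospho1 (0.52) and opposed to Cyp4f16 (-0.54), and without BXD85 to Pnrc1 (0.55), Car14 (0.53) and Hsd17b6 (0.52), with Cyp4f16 (-0.56) still last, and with library total taken out Pnrc1 and Cyp4f16 were again first and last.

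The 4 BXD/TyJ lines, outside all fits above, had cortex changes of Dbp and Nfil3 in the same directions as the 39 pools. Cortex Dbp had 6.01 to 6.82 log2 CPM in Ctr and 5.09 to 5.81 in SD pools, a mean change of -0.93, lower in 4 of 4 lines. Cortex Nfil3 had 2.78 to 3.17 in Ctr and 3.78 to 4.15 in SD pools, a mean change of +0.99, higher in 4 of 4 lines. BXD29 and BXD29t carry the same line number, and the test below counts them as separate lines. Each had an exact permutation p of 0.0286, the smallest that 4 against 4 lines allow, and an adjusted p of 0.0762 over 8 tests, which did not pass.

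Liver Nfil3 had a mean change above that of the 39 pools (+0.01), whose changes ran from -0.86 to +0.48. It had 5.16 to 5.56 log2 CPM in Ctr and 5.58 to 6.11 in SD pools of the 4 lines, a change of +0.38 in 4 of 4 lines with the same exact permutation p of 0.0286 and adjusted p of 0.0762. The difference between the 4 lines and the 39 pools was not tested. Cortex Tef was higher in 2 of 4 lines and lower in 2, with a mean change of -0.09 and an exact permutation p of 0.514, beside 38 of 39 pools lower above. Liver Tef was higher in 4 of 4 lines, by 0.13 to 0.19 with a mean of +0.16, and its exact permutation p was 0.457, in a test that compares levels and does not use the pairing of a line. These 5 remaining combinations of member and tissue had changes from -0.09 to +0.16 with exact permutation p of 0.457 to 0.914.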

How the data were processed

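Stranded mRNA libraries of 172 RNA pools were sequenced. According to the methods, the authors aligned reads to mm9 with STAR, counted them per gene by strand with HTSeq, left out genes of low count, and deposited log2 CPM with TMM factors from edgeR, cortex and liver apart. The deposited log2 values were used as given. Undoing the logarithm and the prior count gave whole reads for 100% of values in all 4 tables, within 0.02 of a whole number, and their sums are the depths given. Changes were fitted with limma 3.58.1 (R 4.3.3, eBayes with a variance trend, two-sided) on 39 against 39 pools without a block, and tissue differences on paired values against 0, adjusted by Benjamini-Hochberg over all genes. Relations used numpy 2.4.6, pandas 2.3.3 and scipy 1.17.1 with 100000 resamples, and plots matplotlib 3.10.9. Alternatives were a block of lines, no trend, median centring, a filter at a mean of 1, other sets of pools, a prior count of 5, voom, leaving out lines and taking out library total. The fits were also run on simulated data, the outcome of which is not given here. The members and lists were chosen with earlier results of these data known. Named genes were the 4 members, the genes of the 7 lists, and, per member and tissue, the 3 highest correlates and the lowest one, the latter not given for every case. Cell type markers came from a list of their own, and genes overlapping a member are named beside it.

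Ctr and SD pools of a line share a genotype, so lines pair the pools. Deviations of pools of the same line from their group means correlated in 39 of 39 pairs in each tissue, with a lowest r of 0.299 in cortex and 0.169 in liver and medians of 0.614 and 0.475, against -0.0197 and -0.018 between lines. Exon lengths came from the annotation of mm9. Proteins of the 4 genes were not analysed here.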

Additional observations from a re-analysis of the deposited data

Results flagged for a closer look

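Liver and cortex changes differed by the test of the paired difference for each of the 4 genes, at 0.90 for Dbp, 0.31 for Tef, 0.16 for Hlf and -0.997 for Nfil3 (log2, liver minus cortex).

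Among the 4 BXD/TyJ lines, 2 of 16 groups had a pool far from the others for its group's range. Hlf in the cortex Ctr pool of BXD32 was 8.11 log2 CPM, against 8.23 to 8.24 in the other lines, and 8.41 in its own SD pool. Dbp in the liver Ctr pool of BXD29t was 6.61, against 7.10 to 7.20, and its SD pool was as low, at 6.61. BXD29t also had the lowest cortex Dbp level of the 4 lines in both conditions. Chance alone gives such a gap in about 1 of 20 groups.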

How the results depend on the processing

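Of 1075 values obtained under alternatives for 90 results, 1017 were labelled unchanged, 24 no longer passed, 7 newly passed, 26 changed sign and 1 count moved. For tests, unchanged means the same direction and side of the threshold. Counts were judged by the size of their shift. Values with a BXD/TyJ line left out were judged by sign and size of shift, without a p. The causes were not tested. Cortex changes of Dbp, Tef and Nfil3 and the 4 tissue differences kept direction and threshold under each alternative run. Settings without BXD85, without BXD56, BXD70, BXD85 and BXD90, and with library total taken out were chosen after seeing the data.

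Without BXD56, BXD70, BXD85 and BXD90, cortex Hlf newly passed (-0.063, adjusted p 0.0431, over alternatives 0.0431 to 0.374) and liver Tef no longer did (0.082, adjusted p 0.0659, over alternatives 0.0015 to 0.0659). The Ctr to SD relation in liver passed for Dbp (0.58) and not for Hlf (0.30). Signs changed for Hlf change in cortex with liver (-0.0014), Hlf with Nfil3 in liver Ctr (0.22), Dbp with Nfil3 in liver SD (-0.0515), and the spread ratios of Hlf in cortex (1.24) and Dbp in liver (1.25), and Tef in liver did not pass (0.84). Cortex to liver relations that passed numbered 1 instead of 3.

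Without BXD85, the Ctr to SD relation in liver passed for Dbp (0.47) and not for Hlf (0.37). Signs changed for Dbp change in cortex with liver (-0.028), Hlf with Nfil3 in liver Ctr (0.20), Tef with Nfil3 change in liver (0.0072), and the spread ratios of Dbp (1.28) and Hlf (1.05) in liver, and Tef in liver did not pass (0.822). With library total taken out, Dbp with Nfil3 in liver SD became -0.25.

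With libraries centred on their medians, Hlf Ctr with SD in liver and 3 liver relations of Nfil3 no longer passed (0.37 for Hlf), Nfil3 SD in cortex with liver became -0.012 and Hlf with Nfil3 in liver Ctr 0.11. In the 33 BXD/RwwJ lines the liver change of Nfil3 was -0.016 and Dbp with Nfil3 in liver SD -0.041. Without BXD48a, BXD65a and BXD73b, Hlf Ctr with SD in liver no longer passed (0.37), the Dbp spread ratio in cortex did (1.5), Nfil3 Ctr in cortex with liver became 0.035 and Hlf with Nfil3 in liver Ctr 0.019. Further gains and losses of single relations between members, or between tissues, are not listed here.

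Leaving out each line in turn, the liver change of Nfil3 ran from -0.0051 to 0.030 (the highest without BXD85). In the BXD/TyJ lines Hlf in cortex ran from -0.013 to 0.16 and Dbp in liver from -0.027 to 0.089. A replicate block of lines changed no call of a member, and with it 11359 genes passed in cortex and 7603 in liver. Depth limits Nfil3 most, with a median of 172 reads in cortex Ctr and 334 in liver Ctr libraries.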
